A study of Homo sapiens with 9 samples.

Results

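The genes described here are protein-coding genes of human chromosome 19 whose symbol is ZNF followed by a number. They were selected on a summed count of at least 900 over 9 RNA-seq libraries of LNCaP cells, and 206 of the 240 such genes in the count table of 37351 genes reached it. The summed count drew on all 9 libraries without regard to time. ZNF491 (1007 counts) and ZNF284 (1016 counts) lay just above this threshold, and ZNF575 (810 counts) and ZNF404 (780 counts) lay just below it. All 206 members were among the 19250 genes tested, as were 22 of the 34 genes under the threshold.

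LNCaP is an established line from a lymph node metastasis of prostate carcinoma. The cells were held for 6 to 12 h in medium that lacked serum and calcium, then received 15 ng/mL recombinant neuregulin 1 (NRG1, a ligand of the receptor HER3), and total RNA was taken at 0, 12 and 24 h. Each time had 3 libraries, labelled as biological replicates, and the 0 h libraries carry the same NRG1 label as the others. The study's methods say that cells were plated in triplicate, and whether the replicates came from separate experiments is not stated there. Libraries of untreated cells at 12 or 24 h were not analysed here, so NRG1 and time in the medium cannot be told apart. The comparisons asked which genes differed after 12 and 24 h of NRG1.

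C2H2 zinc finger proteins bind DNA through arrays of small zinc-coordinating fingers, each of which reads a few bases. Most of those on chromosome 19 also carry a KRAB domain, which recruits the corepressor TRIM28 and, through it, the histone methyltransferase SETDB1 and heterochromatin proteins. The genes arose largely by repeated duplication of their neighbours and lie in clusters along the chromosome, and many of the proteins are known to bind the sequences of retroelements.

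Promoters are shown for 6 members that moved in the same direction over time: ZNF470, ZNF264, ZNF547 and ZNF548, which were lower at 24 h and lie close together near the end of the long arm, and ZNF121 and ZNF558, which were higher at both times and lie near each other on the short arm. Each runs from 250 bases before to 50 bases after the annotated start, 5′ to 3′ on the strand of the gene, in RefSeq's GRCh38.p14. ZNF470 is chr19:56567218-56567517 on the plus strand, ZNF264 chr19:57191250-57191549 on the plus strand, ZNF547 chr19:57363301-57363600 on the plus strand, ZNF548 chr19:57389604-57389903 on the plus strand, ZNF121 chr19:9584455-9584754 on the minus strand and ZNF558 chr19:8832255-8832554 on the minus strand. Capitals mark matches on either strand to 5 short motifs: CCGGAAG (ETS factors), GGGCGGG (SP and KLF factors), GCATGCGC (NRF1), AAGATGGC (YY1) and TGACGTCA (CREB and ATF factors). No pair of marked matches overlapped in these promoters.
ZNF470: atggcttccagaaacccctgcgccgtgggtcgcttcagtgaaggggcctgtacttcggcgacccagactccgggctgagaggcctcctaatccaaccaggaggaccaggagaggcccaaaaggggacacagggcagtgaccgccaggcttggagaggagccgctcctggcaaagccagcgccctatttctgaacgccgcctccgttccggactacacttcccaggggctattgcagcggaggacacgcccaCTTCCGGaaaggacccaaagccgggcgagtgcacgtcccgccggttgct
ZNF264: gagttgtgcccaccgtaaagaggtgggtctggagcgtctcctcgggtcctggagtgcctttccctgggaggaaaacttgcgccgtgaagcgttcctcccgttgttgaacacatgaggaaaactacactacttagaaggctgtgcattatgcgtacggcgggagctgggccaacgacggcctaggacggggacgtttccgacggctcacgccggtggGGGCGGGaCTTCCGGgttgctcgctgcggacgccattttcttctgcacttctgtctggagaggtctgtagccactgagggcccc
ZNF547: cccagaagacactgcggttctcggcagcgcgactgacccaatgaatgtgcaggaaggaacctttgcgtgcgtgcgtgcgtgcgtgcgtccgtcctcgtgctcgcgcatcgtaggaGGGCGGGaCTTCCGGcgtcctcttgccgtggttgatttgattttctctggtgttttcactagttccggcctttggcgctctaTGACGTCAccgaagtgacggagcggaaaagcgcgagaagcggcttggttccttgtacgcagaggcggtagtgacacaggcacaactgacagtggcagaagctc
ZNF548: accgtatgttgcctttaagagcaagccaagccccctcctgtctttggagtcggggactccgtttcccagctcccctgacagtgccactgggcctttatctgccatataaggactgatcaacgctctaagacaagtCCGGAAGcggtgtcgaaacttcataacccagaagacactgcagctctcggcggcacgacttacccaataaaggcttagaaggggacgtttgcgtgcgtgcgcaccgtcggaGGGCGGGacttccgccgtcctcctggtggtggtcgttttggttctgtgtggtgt
ZNF121: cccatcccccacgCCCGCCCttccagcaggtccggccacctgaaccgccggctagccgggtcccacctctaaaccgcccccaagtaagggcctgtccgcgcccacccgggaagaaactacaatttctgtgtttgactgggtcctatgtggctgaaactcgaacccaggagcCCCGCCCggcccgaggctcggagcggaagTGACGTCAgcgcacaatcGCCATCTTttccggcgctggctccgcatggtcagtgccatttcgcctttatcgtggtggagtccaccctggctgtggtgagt
ZNF558: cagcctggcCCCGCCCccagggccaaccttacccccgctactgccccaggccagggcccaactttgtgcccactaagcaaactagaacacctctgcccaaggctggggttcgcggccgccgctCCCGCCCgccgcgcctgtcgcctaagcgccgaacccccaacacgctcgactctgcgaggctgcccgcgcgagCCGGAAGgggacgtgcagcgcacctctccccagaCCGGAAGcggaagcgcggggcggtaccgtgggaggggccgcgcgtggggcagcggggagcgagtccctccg

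Promoter sequences were matched for 183 of the 206 members. The ETS motif was present in 82 of them (44.8%), against 10.3% of all 35116 promoters of the same length, 34.4% of 195 promoters of ZNF genes on other chromosomes and 13.8% of 1300 promoters of other chromosome 19 genes. The SP motif was present in 51.9% of the members' promoters, 33.1% of all promoters, 38.5% of those of ZNF genes on other chromosomes and 46.4% of those of other chromosome 19 genes. The YY1 motif was rarer, in 7.1%, 2.89%, 3.08% and 4.54% of these sets. The NRF1 motif was in 4.37%, 3.05%, 5.64% and 5.23%, and the CREB motif in 3.83%, 1.85%, 4.1% and 3.38%. The promoters held a median of 21 CG dinucleotides in the members, 14 over all promoters, 24 in ZNF genes of other chromosomes and 19 in other chromosome 19 genes. Among members with a matched promoter, the ETS motif was in 12 of the 25 that were lower at 24 h (48%) and in 69 of the 154 that were not called at 24 h (44.8%). The comparison sets had no filter on counts and their starts were chosen in other ways than the members', so these shares are not like for like. For the members, the matched start lay within 1000 bases of the deposited 5′ end in 157 of 183. These matches are letters in a window and say nothing of whether a factor was bound.

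Library totals ran from 47016302 to 60985825 counts and were higher at 0 h (58267359 to 60985825) than at 12 h (48760003 to 54083444) or 24 h (47016302 to 54605125). Mitochondrially encoded genes took 5.02% to 6.09% of the counts. The 7 LNCaP and luminal markers summed here (KLK3, KLK2, FOLH1, TMPRSS2, HOXB13, KRT8 and KRT18) each exceeded 1 CPM, with summed levels of 4207 to 4526 CPM, whereas no leukocyte or basal marker did. Of the fibroblast markers 3 of 7 exceeded 1 CPM, with summed levels of 24.6 to 28.7 CPM over all libraries. Of the endothelial markers 1 of 3 did (VWF, with PECAM1 near 0), and their summed level was 12.95 to 13.63 CPM at 0 h, 8.36 to 9.31 CPM at 12 h and 6.89 to 8.06 CPM at 24 h. The part of depth and of these markers in the results was not tested, except that libraries thinned to the smallest total were analysed as an alternative.

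The members were expressed at low levels. Their mean level over the 9 libraries ranged from 2.02 to 155 CPM (counts scaled to a common library size), with a median of 13.2 CPM, and per kilobase of exon their median was 2.45 CPM per kb, close to that of all tested genes (2.33 CPM per kb) and below that of the other chromosome 19 protein-coding genes with the same summed count (9.32 CPM per kb). Together the members made up 0.382% ± 0.00784 (SD, n = 3) of a 0 h library, 0.375% ± 0.0022 of a 12 h library and 0.371% ± 0.00842 of a 24 h library, and these shares overlapped between the times. In bulk RNA, fewer cells that express a gene and less RNA per cell cannot be told apart. The highest member per kb was ZNF146, a protein made almost wholly of fingers, at 37.5 CPM per kb, followed by ZNF358 (34.9), ZNF581 (21.6), ZNF524 (17.4) and ZNF787 (16.0). None of these 5 had a KRAB pattern in its coding sequence. ZNF581, ZNF524 and ZNF787 passed the test in no comparison (adjusted p from 0.0711 to 0.949 against 0 h, edgeR).

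After 12 h of NRG1, 30 of the 206 members (14.6%) differed from 0 h at an adjusted p of at most 0.05 by edgeR's quasi-likelihood test, 12 higher (5.83%) and 18 lower (8.74%). Of all tested genes 18.7% were called, 10.6% higher and 8.16% lower, so the members' share of falls was near the background and their share of rises was below it. With a fold change of at least 1.5 as well, 2 members were called (0.971%), against 2.37% of all tested genes. The called changes were small, with a median size of 0.23 on the log2 scale, and in 28 of the 30 (93.3%) the 12 h and 0 h libraries did not overlap, as in 96.3% of all the genes called. The members' median log2 fold change was -0.010, and that of all tested genes was -0.0084. The split depended on single libraries: without 12 h replicate 2 only 7 members were higher, and with the trend on GC content and length removed 17 were higher and 14 lower.

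The 2 members past both thresholds at 12 h moved in opposite directions. ZNF728 (chromosome 19, 22974883 to 23003176), a KRAB zinc finger gene near the centromere, measured 2.74, 2.59 and 2.55 CPM at 0 h, 3.89, 3.97 and 4.26 CPM at 12 h and 4.03, 3.49 and 3.71 CPM at 24 h. All 6 later libraries lay above all 3 of 0 h, with a log2 fold change of 0.62 ± 0.13 (SE) at 12 h and 0.51 ± 0.13 at 24 h (adjusted p = 0.000376 and 0.00295, edgeR). ZNF491 (11797667 to 11809622), in which no KRAB pattern was found, measured 2.76, 2.71 and 2.95 CPM at 0 h, 1.98, 2.01 and 1.55 CPM at 12 h and 1.24, 1.51 and 1.52 CPM at 24 h. The groups at each time did not overlap, and ZNF491 fell by 0.60 ± 0.16 at 12 h and by 0.98 ± 0.17 at 24 h on the log2 scale (adjusted p = 0.00785 and 3.66e-05, edgeR). Both genes are weakly expressed, with 1667 and 1007 counts summed over the 9 libraries, and without 12 h replicate 3 the 12 h call of ZNF491 was lost (adjusted p = 0.0689).

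The falls at 12 h included more abundant members. ZNF264, a KRAB gene on the distal long arm, measured 43.6, 43.5 and 42.9 CPM at 0 h, 31.7, 34.5 and 31.9 CPM at 12 h and 32.9, 31.1 and 36.2 CPM at 24 h. Every later library was below every 0 h library, and ZNF264 fell by 0.41 ± 0.05 at 12 h and by 0.38 ± 0.05 at 24 h (log2, adjusted p = 9.77e-08 and 3.03e-07, edgeR). ZNF737 measured 28.8, 26.9 and 27.3 CPM at 0 h, 22.8, 22.6 and 22.7 CPM at 12 h and 21.3, 20.2 and 22.5 CPM at 24 h, again without overlap with 0 h (log2 fold change -0.29 ± 0.05 and -0.37 ± 0.05, adjusted p = 0.000109 and 1.30e-06, edgeR). ZNF587, known with its near copy ZNF417 for binding the endogenous retrovirus HERV-K, measured 29.6, 26.0 and 29.0 CPM at 0 h and 22.0, 22.2 and 22.9 CPM at 12 h (log2 fold change -0.33 ± 0.05, adjusted p = 1.90e-05, edgeR). Its 24 h libraries, at 25.02, 24.7 and 26.6 CPM, overlapped those of 0 h. The other named falls were ZNF552 (-0.31), ZNF71 (-0.30) and ZNF471 (-0.26), taken up below with their neighbours, and ZNF578 (-0.38, adjusted p = 0.0266, edgeR), whose call was lost when any of 4 libraries was left out (0 h replicates 1 and 2, 12 h replicates 1 and 3; adjusted p from 0.0582 to 0.155). ZNF587 shares its span with ZNF814, ZNF552 with ZNF586 and ZNF578 with another gene, and reads of such genes may have been divided between them.

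**Figure D1:**
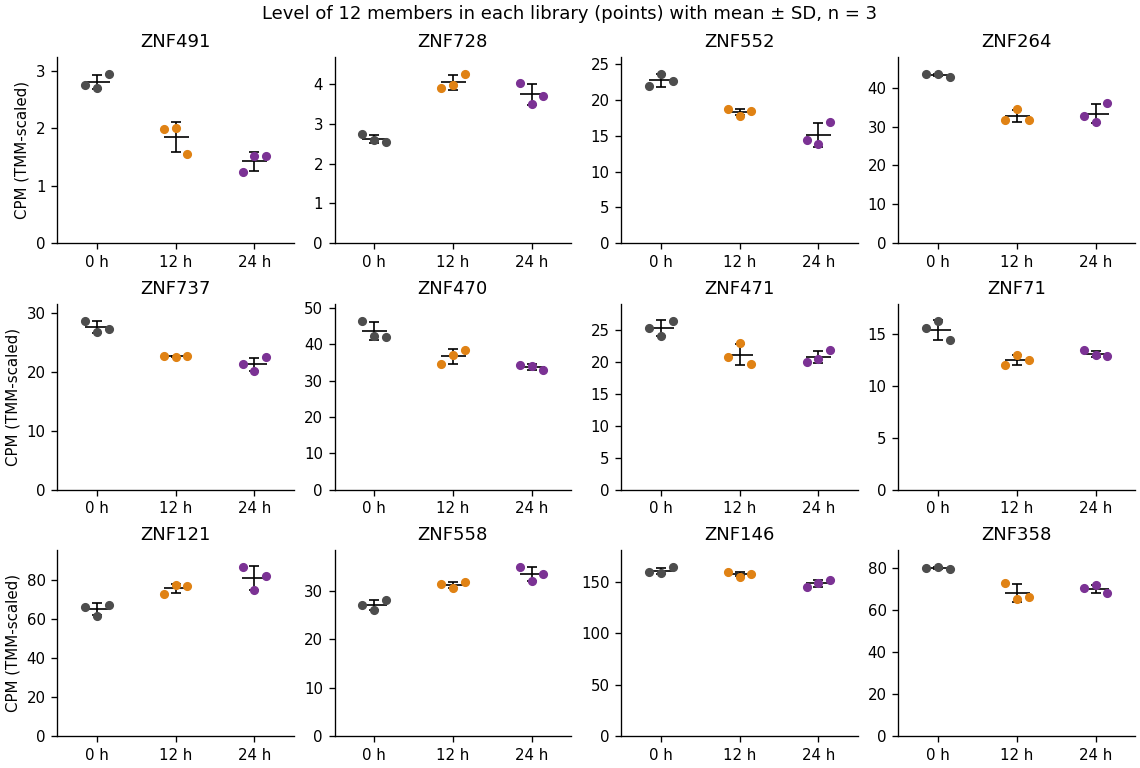
Level in CPM on TMM-scaled library sizes (vertical axis, from 0) of 12 members at 0, 12 and 24 h; points are the 3 libraries of each time and bars the mean ± SD. ZNF491, ZNF552, ZNF264, ZNF737, ZNF470, ZNF471, ZNF71 and ZNF358 are lower in every later library than in every 0 h library, and ZNF728, ZNF121 and ZNF558 are higher; ZNF146 is lower at 24 h.

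Rises at 12 h were led, after ZNF728, by ZNF565 and ZNF649. ZNF565 (log2 fold change 0.39 ± 0.13, adjusted p = 0.0336, edgeR) lies across ZNF146, whose counts are far higher, and its call was lost in the absence of replicate 2 at 0 h or of replicate 2 or 3 at 12 h (adjusted p from 0.0765 to 0.160) and with libraries thinned to the smallest total (0.059). ZNF649, a KRAB gene known to bind LINE-1 sequence, measured 7.26, 8.13 and 8.10 CPM at 0 h and 9.43, 9.82 and 9.77 CPM at 12 h, without overlap (log2 fold change 0.31 ± 0.08, adjusted p = 0.00527, edgeR). ZNF121 measured 66.5, 61.6 and 67.3 CPM at 0 h, 73.1, 77.7 and 76.8 CPM at 12 h and 86.6, 74.8 and 82.0 CPM at 24 h. All later libraries of ZNF121 were above those of 0 h, and it rose by 0.22 ± 0.05 and 0.32 ± 0.05 on the log2 scale (adjusted p = 0.000541 and 2.52e-06, edgeR). ZNF558, a KRAB gene, measured 27.0, 26.1 and 28.2 CPM at 0 h, 31.5, 30.5 and 31.7 CPM at 12 h and 34.8, 32.0 and 33.5 CPM at 24 h, with the groups of all 3 times apart (log2 fold change 0.20 ± 0.05 and 0.30 ± 0.05, adjusted p = 0.00226 and 1.12e-05, edgeR). ZNF525 (0.22), ZNF551 (0.21) and ZNF544 (0.14) also rose at 12 h (adjusted p = 0.00469, 0.0253 and 0.00727, edgeR), and the call of ZNF551 was lost when 0 h replicate 1 or 2 or 12 h replicate 1 or 2 was left out (adjusted p from 0.0589 to 0.102).

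At 24 h, 33 members (16.0%) differed from 0 h, 6 higher (2.91%) and 27 lower (13.1%). The background was 21.1% of all tested genes, 11.6% higher and 9.48% lower, and past both thresholds it was 3.31%, against 2 members (0.971%), ZNF491 and ZNF552, both lower. The 3 libraries of 24 h and of 0 h did not overlap for 30 of the 33 (90.9%), and for 95.1% of all the genes called. Of the 206 members 132 had a negative log2 fold change and 74 a positive one, and the members' median was -0.041, against -0.0068 over all tested genes. Of 199 ZNF genes of other chromosomes with the same summed count, 15 were higher and 29 lower, with a median of -0.039. The 643 other protein-coding genes of chromosome 19 gave 115 higher and 51 lower, with a median of 0.013. The number of falls dropped to 17 without 0 h replicate 3 or without 24 h replicate 1, and the number of rises to 3 without 0 h replicate 2.

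**Figure D2:**
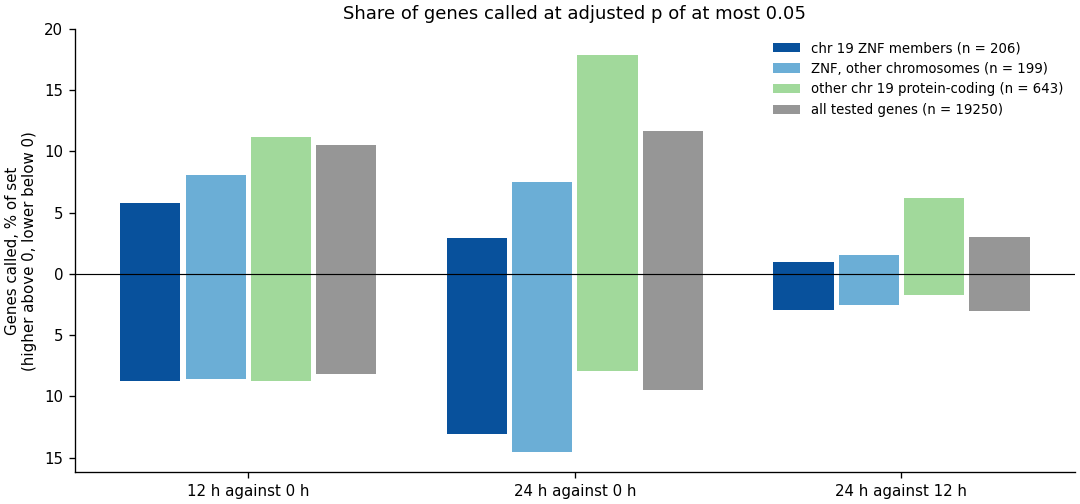
Share of each gene set called at an adjusted p of at most 0.05 (vertical axis, % of the set, higher calls above 0 and lower calls below 0) in the 3 comparisons. At 24 h against 0 h the members had 2.91% higher and 13.1% lower, and the other chromosome 19 protein-coding genes 17.9% higher and 7.93% lower.

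ZNF552, a KRAB gene of the distal long arm, fell further between 12 and 24 h. It measured 21.9, 23.7 and 22.6 CPM at 0 h, 18.7, 17.8 and 18.5 CPM at 12 h and 14.5, 13.9 and 17.0 CPM at 24 h, so that the 3 times were separate. Its log2 fold change was -0.31 ± 0.06 at 12 h and -0.59 ± 0.07 at 24 h (adjusted p = 0.000388 and 6.43e-09, edgeR), and 24 h was also below 12 h (-0.28 ± 0.07, adjusted p = 0.00683), a call that was lost without 24 h replicate 2 (adjusted p = 0.0705). The other named falls at 24 h were ZNF547 (-0.51), ZNF470 (-0.37), ZNF836 (-0.33) and ZNF671 (-0.29). ZNF836 measured 5.15, 5.61 and 6.56 CPM at 0 h and 4.39, 4.63 and 4.69 CPM at 24 h (adjusted p = 0.0229, edgeR), and the call was lost in the absence of replicate 3 at 0 h or of replicate 1 or 2 at 24 h (adjusted p from 0.0522 to 0.195). Among the genes highest per kb, ZNF358 fell at both times, from 79.9, 80.3 and 79.4 CPM to 72.8, 65.0 and 66.0 CPM and to 70.3, 71.7 and 68.0 CPM (log2 fold change -0.23 ± 0.04 and -0.19 ± 0.04, adjusted p = 4.00e-05 and 0.000476, edgeR). ZNF146 was lower at 24 h only by a log2 fold change of -0.11 ± 0.03 (adjusted p = 0.00987, edgeR), and that call was lost without 0 h replicate 3 or 24 h replicate 1 (adjusted p of up to 0.0797).

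The named rises at 24 h were ZNF728, ZNF121 and ZNF558, given above, with ZNF529 (0.18 ± 0.07) and ZNF317 (0.12 ± 0.04). The call of ZNF529 (adjusted p = 0.0476, edgeR) was lost when any of 6 libraries was left out (0 h replicates 2 and 3, 12 h replicates 1 and 3, 24 h replicates 1 and 2; adjusted p from 0.0512 to 0.191) and with DESeq2, no scaling factor, only the 6 libraries compared, no filter on low counts or the replicate block (0.0508 to 0.0884). That of ZNF317 (adjusted p = 0.0417, edgeR) was lost without 0 h replicate 1 or 2 or 24 h replicate 2 or 3 (adjusted p from 0.0768 to 0.169), and with no filter on low counts or with thinned libraries (0.091 and 0.0533). The comparisons of 12 and 24 h share the 0 h libraries, so calls in both are not independent of each other. Calls that held when each of the 9 libraries was left out in turn numbered 16 of 30 at 12 h and 11 of 33 at 24 h. The same share over all the genes called is not given here, so these numbers do not set the members apart from other genes.

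Between 12 and 24 h few members moved. Of the 206, 8 (3.88%) were called, 2 higher and 6 lower, against 6.08% of all tested genes (3.03% higher and 3.05% lower). No member passed both thresholds by edgeR, where 0.452% of all tested genes did; none had an unadjusted p under 0.05 with that fold change either, and DESeq2 also called none. ZNF627, a KRAB gene, measured 32.5, 34.4 and 33.9 CPM at 12 h and 29.7, 27.7 and 27.7 CPM at 24 h, without overlap (log2 fold change -0.25 ± 0.05, adjusted p = 0.00103, edgeR), and its call was the only 1 of the 8 that held when each library was left out. The other falls were ZNF792 (-0.33), ZNF552 (-0.28), ZNF446 (-0.21), ZNF559 (-0.20) and ZNF426 (-0.15), and the rises were ZNF497 (0.30) and ZNF587 (0.19). Each of the other 7 calls was lost without at least 1 library: ZNF552 without 24 h replicate 2, ZNF497 without 12 h replicate 3 or 24 h replicate 1 or 3, ZNF792 without 12 or 24 h replicate 1 or 2, and ZNF446, ZNF559, ZNF426 and ZNF587 in 5 or 6 omissions (adjusted p from 0.0523 to 0.202, edgeR). The count of 8 went down to 4 without 12 h replicate 1 or 24 h replicate 3, to 3 without 12 h replicate 2 and to 2 without 24 h replicate 1 or 2. With library totals in place of the TMM factors, 5 members were called, 2 higher and 3 lower, and with the GC content and length trend removed 7, 1 higher and 6 lower. Over all 3 times, 42 members (20.4%) differed by the F test, against 25.1% of all tested genes.

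Along the chromosome, 197 of the members fell into 9 blocks of at least 5 genes, with gaps of over 1 Mb between them, and 9 members lay outside. Block 1 on the short arm (13 members, ZNF557 to ZNF846) held 4 of the 12 rises and 1 fall (ZNF358) at 12 h, and 3 of the 6 rises and 2 falls (ZNF358 and ZNF426) at 24 h. Its rises at 12 h were ZNF558, ZNF317, ZNF121 and ZNF562. The calls of ZNF558 and ZNF121 held in every omission of a library, whereas that of ZNF317 at 12 h was lost without 0 h replicate 1 or 2 or 12 h replicate 1 or 2 (adjusted p from 0.0696 to 0.159, edgeR) and that of ZNF562 without 12 h replicate 2 (0.0549). The block's median log2 fold change was 0.10 at 12 h and 0.041 at 24 h. Block 3 (18 members, ZNF101 to ZNF43), a cluster that includes ZNF93, held 4 falls at each time: ZNF737, ZNF714 and ZNF431 at both, ZNF429 at 12 h and ZNF43 at 24 h. At 24 h, 17 of its 18 members had a negative log2 fold change, with a median of -0.096, but the 0 h libraries of this block were themselves spread, with median deviations of 0.14, 0.015 and 0.051 in replicates 1, 2 and 3. Without 0 h replicate 1 the calls of ZNF714 at both times, ZNF429 at 12 h and ZNF431 and ZNF43 at 24 h were lost, and so they were in other omissions (adjusted p from 0.0502 to 0.344, edgeR). In block 8 (38 members, ZNF175 to ZNF331, all with a KRAB pattern), 3 rose and 1 fell at 12 h and 1 fell at 24 h. Blocks 2, 4, 5, 6 and 7, with 73 members together, held 2 rises and 3 falls at 12 h and 2 rises and 5 falls at 24 h. Over all tested genes 10.6% were higher and 8.16% lower at 12 h, and 11.6% and 9.48% at 24 h. Beside these, block 1 had 30.8% higher and 7.69% lower at 12 h, and 23.1% and 15.4% at 24 h. Block 3 had 22.2% lower at each time and none higher. Block 8 had 7.89% higher and 2.63% lower at 12 h, and 2.63% lower at 24 h.

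**Figure D3:**
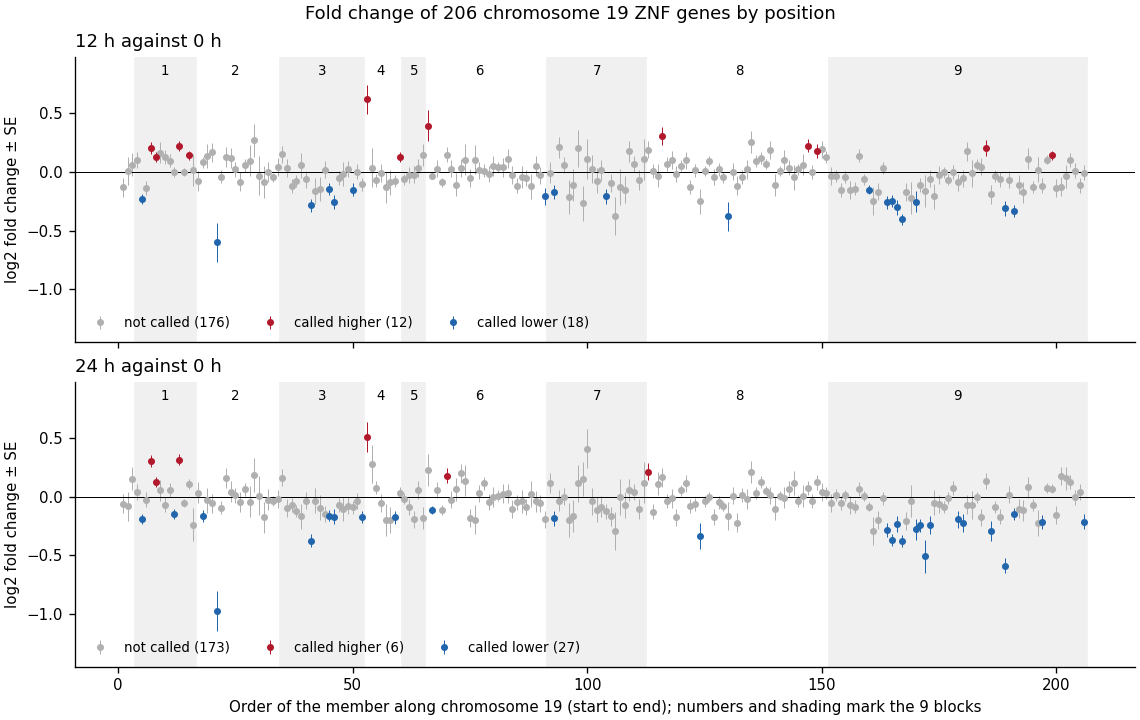
log2 fold change (vertical axis, ± SE) of the 206 members in their order along chromosome 19 (horizontal axis) at 12 h (upper panel) and 24 h (lower panel) against 0 h; colours mark calls at an adjusted p of at most 0.05 and shading the 9 blocks. Of the 27 members lower at 24 h, 15 are in block 9, which holds 55 of the 206 members.

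**Figure D4:**
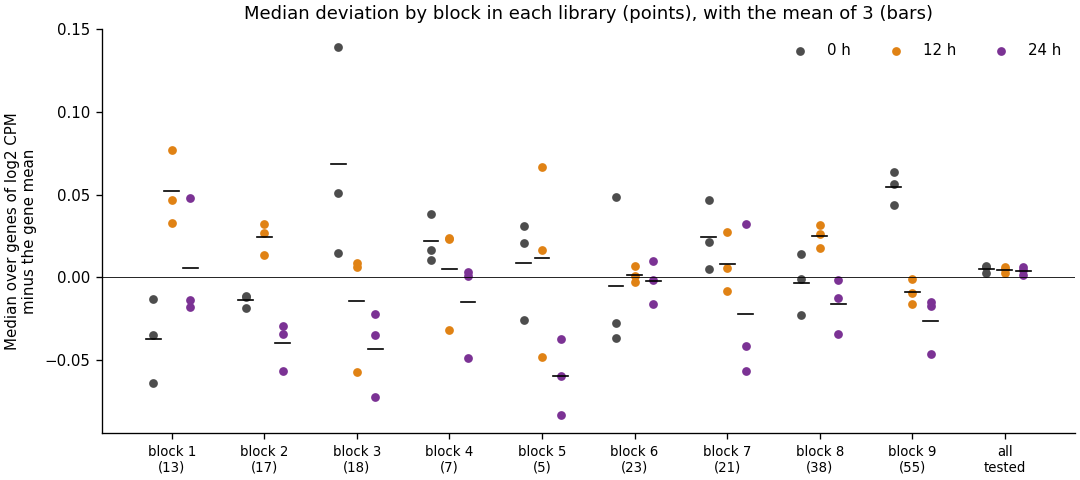
Median over the members of a block of log2 CPM minus the gene's mean (vertical axis) in each library (points), with the mean of the 3 libraries of a time (bars); the number of members is in parentheses. In block 9 all 3 libraries of 0 h (0.044 to 0.063) are above all 6 later ones (-0.047 to -0.0014), and the medians of all tested genes lie between 0.0013 and 0.0065.

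The last block, at the end of the long arm (55 members from ZNF628 to ZNF446, chromosome 19, 55476617 to 58481230), carried most of the falls at 24 h. At 12 h it had 2 rises and 8 of the 18 falls over the chromosome. At 24 h it had 15 falls (27.3%), which is 15 of the 27 over the chromosome, and no rise by edgeR (2 members were higher at an unadjusted p under 0.05, and DESeq2 called none higher). Over all tested genes 10.6% were higher and 8.16% lower at 12 h, and 11.6% and 9.48% at 24 h. The block holds 55 of the 206 members. Of its 17 other tested protein-coding genes with the same summed count 2 were lower at 24 h, ZFP28 and PEG3, and their median log2 fold change was 0.0091, against -0.084 for the members. The members' median deviation was 0.044, 0.063 and 0.056 in the 0 h libraries, -0.016, -0.0097 and -0.0014 at 12 h and -0.018, -0.047 and -0.015 at 24 h. The 0 h libraries were thus separate from the other 6, and those of 12 h and 24 h overlapped. Left out in turn, single libraries gave 10 to 14 falls at 24 h, and members whose span overlaps no other gene with at least 10% of their counts gave 9. Over the chromosome 136 of the 206 members are of this kind. Their number in the block is not given here, so the 9 cannot be read as a share.

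**Figure D5:**
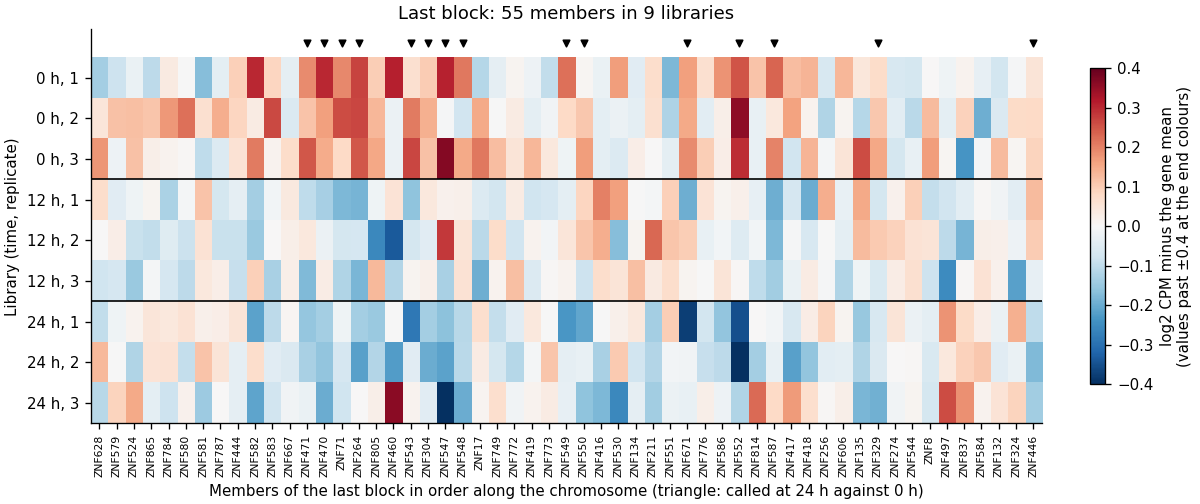
log2 CPM minus the gene's mean over the 9 libraries (colour, red above and blue below, values past ±0.4 at the end colours) for the 55 members of the last block (horizontal axis, in order along the chromosome) in each library (vertical axis, time and replicate); triangles mark the 15 members called at 24 h against 0 h. The run from ZNF582 to ZNF548 is mostly red at 0 h and blue at 24 h, and the first triangle is that of ZNF471, past the 9 genes from ZNF628 to ZNF444.

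Within the last block the falls ran together. Of the 13 consecutive members from ZNF582 to ZNF548 (56375846 to 57402992), a stretch singled out after the values were seen, 12 had a negative log2 fold change at 12 h and all 13 at 24 h, with medians of -0.22 and -0.25. Those called were ZNF471, ZNF470, ZNF71, ZNF264 and ZNF543 at both times, and ZNF304, ZNF547 and ZNF548 at 24 h only. The 42 other members of the block had medians of -0.048 and -0.064 and 7 falls at 24 h, and since the stretch was chosen by its values no test of this difference is given. All 13 have a KRAB pattern, whereas the first 9 members of the block, ZNF628 to ZNF444, do not. Of those 9, ZNF444 was lower at 12 h (-0.15, adjusted p = 0.00378, edgeR), a call that held in every omission of a library, and at 24 h the calls of the block began with ZNF471, past those genes. Over all members, 19.4% of those without a KRAB pattern were lower at 12 h and 22.6% at 24 h. Of those with it 6.86% and 11.4% were lower. Falls were also most frequent in the highest tertile by summed count (15.9% at 12 h and 21.7% at 24 h), and these splits were not separated.

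ZNF470 measured 46.5, 42.4 and 41.9 CPM at 0 h, 34.5, 37.2 and 38.6 CPM at 12 h and 34.4, 33.9 and 33.0 CPM at 24 h. All 6 later libraries were below those of 0 h (log2 fold change -0.25 ± 0.05 and -0.37 ± 0.05, adjusted p = 0.000209 and 2.76e-07, edgeR). ZNF471, its neighbour, measured 25.4, 24.2 and 26.5 CPM at 0 h, 20.8, 23.0 and 19.7 CPM at 12 h and 20.1, 20.4 and 21.9 CPM at 24 h, again without overlap (-0.26 ± 0.06 and -0.29 ± 0.06, adjusted p = 0.00121 and 0.000349, edgeR). ZNF71 went from 15.6, 16.3 and 14.4 CPM to 12.04, 12.98 and 12.54 CPM and to 13.47, 13.02 and 12.9 CPM (-0.30 ± 0.07 and -0.24 ± 0.07, adjusted p = 0.00107 and 0.00969, edgeR), and its 24 h call was lost without 0 h replicate 2 (0.0707). ZNF304, known to recruit TRIM28 to tumour suppressor genes in colorectal cancer cells, measured 19.7, 20.3 and 19.9 CPM at 0 h and 16.7, 16.0 and 17.8 CPM at 24 h (-0.25 ± 0.06, adjusted p = 0.00198, edgeR). ZNF547, a weakly expressed member, measured 4.19, 3.38 and 4.37 CPM at 0 h, 3.43, 4.13 and 3.10 CPM at 12 h and 3.03, 2.92 and 2.46 CPM at 24 h (-0.51 ± 0.14 at 24 h, adjusted p = 0.00644, edgeR). It shares its span with TRAPPC2B, and its call was lost without 0 h replicate 3 (0.0538). The call of ZNF543 at 12 h was lost without 0 h replicate 2 or 3 or 12 h replicate 1 or 2 (adjusted p from 0.106 to 0.198, edgeR). The calls of ZNF543 and ZNF548 at 24 h (adjusted p = 0.0223 and 0.0166, edgeR) were each lost in 3 of the 9 omissions, with adjusted p from 0.0647 to 0.174 for ZNF543 (0 h replicates 2 and 3, 24 h replicate 1) and from 0.0781 to 0.123 for ZNF548 (0 h replicates 1 and 3, 24 h replicate 3).

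Further along the block, ZNF671, a gene known to be methylated in several tumours, measured 12.71, 12.61 and 12.95 CPM at 0 h, 9.91, 12.2 and 11.4 CPM at 12 h and 8.74, 11.3 and 11.1 CPM at 24 h. The later libraries were all below 0 h, and the 24 h difference (-0.29 ± 0.09, adjusted p = 0.0103, edgeR) rested on 24 h replicate 1, without which the adjusted p was 0.136. Among the genes of the stretch that are not members, ZFP28, a KRAB zinc finger gene named outside the ZNF series, went from 26.0 ± 1.36 CPM (SD, n = 3) at 0 h to 20.6 ± 0.34 at 12 h and 19.4 ± 0.809 at 24 h (log2 fold change -0.34 and -0.42, adjusted p = 1.82e-05 and 2.69e-07, edgeR). PEG3, an imprinted zinc finger gene that lies between ZNF71 and ZNF264 (56810077 to 56840728), went from 964 ± 29.0 CPM to 371 ± 21.8 and 190 ± 12.5 CPM (log2 fold change -1.38 and -2.34, adjusted p = 9.44e-16 and 6.11e-20, edgeR). The remaining tested protein-coding genes there, ZIM2, AURKC and TRAPPC2B, were not called (adjusted p from 0.105 to 0.965, edgeR). ZIM2 and AURKC had 205 and 171 summed counts, under the 900 asked of members, so the missing calls do not show them unchanged. ZIM2, whose span overlaps that of PEG3, went from 0.53 CPM to 0.43 and 0.27 CPM (log2 fold change -0.33 and -0.95). AURKC and TRAPPC2B, the latter with 1997 counts, stood at -0.13 and -0.045 by 24 h.

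Of the promoters printed above, those of ZNF264 and ZNF547 hold the SP and ETS letters in the same arrangement, GGGCGGGACTTCCG, and so does that of ZNF548 although its last letters stop short of the marked ETS motif. This run was noticed in the printed promoters. It was found on either strand in 10 of the 183 members' promoters (5.46%) and in 0.125% of all promoters. None of 195 promoters of ZNF genes on other chromosomes held it, and 0.231% of 1300 promoters of other chromosome 19 genes did. The 10 include the 3 printed promoters in which the run was noticed, so the members' share is no test of it. The comparison sets had no filter on counts. Of the 10, 9 lie in the last block: ZNF264, ZNF805, ZNF547, ZNF548, ZNF419, ZNF773, ZNF550, ZNF134 and ZNF671, with ZNF599 elsewhere. The promoters of ZNF264, ZNF547 and ZNF548 were printed because the genes were lower at 24 h, so their falls say nothing of the run. Of the 7 others, which include ZNF599 from outside the last block, 2 were lower at 24 h, ZNF550 and ZNF671. In the last block 15 of the 55 members were lower (27.3%). The remaining 5 of the 7 were not called. ZNF805 was at -0.21 and ZNF599 at -0.19 (adjusted p = 0.0569 and 0.0602, edgeR), and ZNF773, ZNF419 and ZNF134 at 0.073, -0.011 and -0.0059. Neighbouring members are related by duplication, so the 10 promoters are not independent of each other.

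By what the proteins contain, a KRAB pattern was found in 175 of the 206 members and not in 31, and the number of C2H2 fingers ran from 1 to 31 with a median of 12. Of the members with a KRAB pattern 12.6% were called at 12 h and 13.7% at 24 h, and of those without it 25.8% and 29.0%. By summed count, 8.70%, 7.35% and 27.5% of the lowest, middle and highest tertile were called at 12 h and 7.25%, 14.7% and 26.1% at 24 h. Of the 59 members with a near-identical stretch in the transcript of another gene, 17.0% were called at 12 h and 17.0% at 24 h. Of the 147 without, 13.6% and 15.7% were called. Such a stretch need not mean that the gene has a copy. Of the members with at most 8, 9 to 15 and over 15 fingers, 12.8%, 18.2% and 6.52% were called at 12 h and 10.3%, 20.7% and 8.70% at 24 h. The background over all tested genes was 18.7% at 12 h and 21.1% at 24 h. These splits divide the same members and were not separated from each other. None of the 22 tested ZNF genes of the chromosome under the threshold was called in any comparison by edgeR or DESeq2, and at an unadjusted p under 0.05 there was 1 in each.

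Members known to bind retroelements were followed as a list of 6. ZNF91, which restrains SVA elements, measured 49.3, 40.1 and 42.2 CPM at 0 h, 42.2, 40.1 and 42.9 CPM at 12 h and 45.7, 44.6 and 48.5 CPM at 24 h, with overlapping groups (adjusted p = 0.453 and 0.408, edgeR). ZNF93, which binds LINE-1 elements, measured 5.30 ± 0.403, 5.51 ± 0.245 and 4.71 ± 0.461 CPM (SD, n = 3) and was not called either. ZNF417 and ZNF765 passed in no comparison, with log2 fold changes from -0.11 to 0.0061 for ZNF417 and from -0.036 to 0.00077 for ZNF765. The list thus had 1 rise (ZNF649) and 1 fall (ZNF587) at 12 h, 1 fall (ZNF587) at 24 h and 1 rise (ZNF587) from 12 to 24 h. These are 33.3%, 16.7% and 16.7% of the 6, against 18.7%, 21.1% and 6.08% of all tested genes. At 24 h the call of ZNF587 (-0.15 ± 0.05, adjusted p = 0.0488, edgeR) was lost in 7 of the 9 omissions, all but 0 h replicate 2 and 24 h replicate 3, with adjusted p from 0.0621 to 0.234. It was also lost with DESeq2 (0.0693), with no scaling factor (0.0597), with only the 6 libraries compared (0.0747) and with libraries thinned to the smallest total (0.0704).

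The proteins that KRAB zinc fingers work through were examined as a list of 27 genes of the TRIM28 corepressor and of heterochromatin, all of them tested. At 12 h 2 were higher and 3 lower, at 24 h 3 were higher and 3 lower, and from 12 to 24 h 2 were higher and 2 lower. These are 18.5%, 22.2% and 14.8% of the list, against 18.7%, 21.1% and 6.08% of all tested genes. The first count went from 5 to 3 without 12 h replicate 1, and the last from 4 to 0 without 12 h replicate 2, 2 without 24 h replicate 2 and 1 without 24 h replicate 3. TRIM28, the corepressor itself, which lies on chromosome 19 just past the last block, measured 491, 541 and 523 CPM at 0 h, 532, 535 and 558 CPM at 12 h and 537, 549 and 514 CPM at 24 h, with overlapping groups (adjusted p = 0.222 and 0.466, edgeR). DNMT1, the maintenance DNA methyltransferase, and UHRF1, which brings it to replicated DNA, rose at 24 h by 0.25 ± 0.04 and 0.31 ± 0.06 on the log2 scale (adjusted p = 2.08e-05 and 5.06e-05, edgeR). UHRF1 was already higher at 12 h (0.23 ± 0.06, adjusted p = 0.0026, edgeR), and DNMT1 was not called then (adjusted p = 0.250). SUV39H2, a histone H3 lysine methyltransferase of heterochromatin, rose at 24 h as well (0.27 ± 0.06, adjusted p = 0.000794, edgeR). CHD3, a remodeller of the NuRD complex, fell from 560, 584 and 588 CPM to 515, 516 and 521 CPM at 12 h and 522, 528 and 505 CPM at 24 h, without overlap (-0.16 ± 0.03 at each time, adjusted p = 0.000213 and 0.000204, edgeR). ATRX, a remodeller that deposits histone H3.3 with DAXX, fell at 12 h (-0.24 ± 0.04, adjusted p = 5.85e-05, edgeR) and not at 24 h (-0.086 ± 0.04, adjusted p = 0.139), while CBX1, an HP1 protein, fell at 24 h (-0.14 ± 0.03, adjusted p = 0.00266, edgeR). SETDB1 was lower at 24 h than at 12 h (-0.18 ± 0.05, adjusted p = 0.0108, edgeR), a call lost without 12 h replicate 2 or 24 h replicate 3 (0.063 and 0.109), and NSD1, a histone H3 lysine 36 methyltransferase, was lower at both times (adjusted p = 0.0276 and 0.0365, edgeR), calls that were lost without 0 h replicate 1 (0.137 and 0.171), in other omissions and with no scaling factor (0.100 and 0.152). The 12 h call of NSD1 was also lost with the GC content and length trend removed, where the log2 fold change of -0.14 became -0.057 (adjusted p = 0.248), and with only the 6 libraries compared (0.0625).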

How the data were processed

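Total RNA of 9 LNCaP libraries (3 at each of 0, 12 and 24 h after NRG1) was sequenced as paired reads from mRNA libraries. Per the study's methods, the authors used Cutadapt for trimming, STAR for alignment to GRCh38 and featureCounts for counting, and the deposited values are whole-number counts per gene and library, not normalized and not pooled. Whether strand was used and how multiply mapped reads were treated is not given in the sources used here, which matters for genes with near copies or overlapping spans. The table held 14 further columns that were empty and were not used. Totals of 47016302 to 60985825 counts per library set a precision that covers counting error only, since no molecular identifiers were counted.

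Groups and replicate numbers came from the sample titles. Genes were kept with filterByExpr, scaled with TMM factors and tested with edgeR 4.0.16 in R 4.3.3 (robust quasi-likelihood fit of all 9 libraries, no covariate). Benjamini-Hochberg adjustment covered all 19250 genes tested in each comparison. A gene was called at an adjusted p of at most 0.05, and a second count also asked for a fold change of at least 1.5. The comparisons against 0 h share the 0 h libraries. Levels are CPM on TMM-scaled library sizes, given per library or as mean ± SD over 3, and log2 fold changes carry the standard error of the fit. The script was tested on simulated data with known changes. Libraries of a time differed from each other over the members by more than counting noise (chi-square per degree of freedom of 1.84 to 3.91), so each was counted separately. The p-values measure the spread between these libraries.

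Blocks were formed by opening a new block where the starts of neighbouring members lay over 1 Mb apart, and blocks of at least 5 members were described. Coordinates are those of the deposited table. Exon lengths, C2H2 fingers and a KRAB pattern came from a GENCODE annotation of the same primary assembly, and diverged KRAB boxes can be missed. Near-identical stretches in transcripts of other genes were sought with BLAST 2.17.0. A short shared stretch sufficed, so the matches include genes of other families (ATF6 and CDC42 for ZNF426) and overlapping transcripts (ZNF566-AS1 for ZNF566). Promoters were taken from RefSeq tables (GRCh38.p14). For each member the start nearest to its deposited 5′ end was chosen. For ZNF genes of other chromosomes and other chromosome 19 genes, the promoter with the lowest coordinate was taken, whatever the strand. The set of all promoters kept every promoter of a gene.

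Named genes were, for each comparison, members past both thresholds and up to 8 rises and 8 falls among called members without overlap of the replicates, with the 5 highest members per kb, the genes next to the count threshold, 6 members known to bind retroelements, and TRIM28 with up to 8 called partner genes. Any further gene was picked with its values in view. The members and lists were chosen with earlier results of these data known, so counts over members are set beside the same counts over all tested genes, with no test over the list. Replicate numbers did not pair the libraries: deviations of libraries with the same number correlated at -0.037 to 0.029. Alternatives were DESeq2 1.42.0, other scaling, filters, thinning, GC and length trends, other member definitions, the replicate block and each library left out in turn. Further genes of the LNCaP marker list are not reported here.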

Additional observations from a re-analysis of the deposited data

Results flagged for a closer look

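For 8 members the fold change against 0 h differed between 12 and 24 h by the direct comparison of the 2 times (edgeR's quasi-likelihood test, adjusted over all tested genes). The log2 difference of 24 h from 12 h was -0.33 for ZNF792, -0.28 for ZNF552, -0.25 for ZNF627, -0.21 for ZNF446, -0.20 for ZNF559 and -0.15 for ZNF426, and it was 0.30 for ZNF497 and 0.19 for ZNF587. ZNF792, ZNF627 and ZNF559 had positive log2 fold changes at 12 h that did not pass the test (0.15, 0.08 and 0.13) and lay below 0 h at 24 h (-0.18, -0.17 and -0.07), where ZNF627 passed. ZNF446 and ZNF426 were at -0.0064 and -0.0027 at 12 h and were lower at 24 h (-0.21 and -0.15, adjusted p = 0.0108 and 0.0128, edgeR). ZNF497 was at -0.12 and 0.18 against 0 h, passing at neither time. The libraries of 12 and 24 h did not overlap for any of the 8, as for 98.6% of all the genes called in this comparison, where 6.08% of all tested genes were called, and the call of ZNF627 alone held when each library was left out.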

How the results depend on the processing

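Where a gene was named for a called change, its fold change kept its sign under the alternatives run. This does not cover named genes that were not called, some of which lay near 0 (ZNF765 at 12 h, 0.00077). No median over the members changed sign. The split of calls at 12 h did turn from 12 higher and 18 lower to 17 higher and 14 lower with the GC content and length trend removed. With a fold change of at least 1.5 added, the members called went from 30 to 2 at 12 h, from 33 to 2 at 24 h and from 8 to 0 between 12 and 24 h, the last with 0 at an unadjusted p under 0.05 and 0 by DESeq2. Between 12 and 24 h, 5 members were called with no scaling factor and 4 when members with an overlapping gene were left out, and the partner genes called went from 4 to 2 with the GC content and length trend removed. The falls of the last block at 24 h went from 15 to 9 without members that have an overlapping gene. Leaving these members out kept 136 of the 206, so fewer calls need not mean a lower share. The last block and the F test over the 3 times were added to the alternatives after the data were seen. The causes were not tested.

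Leaving out each library in turn gave 20 to 31 members called at 12 h, 22 to 32 at 24 h and 2 to 10 between them, and 29 to 40 by the F test, where all 9 libraries gave 42. The same ranges over all tested genes are not given here. The members' medians ran from -0.026 (without 12 h replicate 1) to -0.0062 at 12 h, from -0.056 to -0.031 at 24 h and from -0.041 to -0.027 between them. Partner genes called ran from 3 to 6, 5 to 7 and 0 to 4, and falls of the last block from 7 to 10 at 12 h and 10 to 14 at 24 h. With the replicate number as a block (replicate block), 30, 35 and 8 members were called and 43 by the F test, and the block moved no count over members by more than 1.5 times. With all libraries thinned to the smallest total, 25, 30 and 8 members were called.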
